A study of Macaca fascicularis with 3 samples.

Results

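MYH7 and MYH6 encode the slow (beta-cardiac) and the alpha-cardiac myosin heavy chains, and both were followed here through single nuclei of an eye muscle and a leg muscle of Macaca fascicularis, the crab-eating macaque. They were taken as the 2 rows carrying these symbols among the 38550 rows of the nuclei tables, listed there as ENSMFAG00000000163 for MYH7 and ENSMFAG00000000323 for MYH6. The groups were nuclei of extraocular muscle (EOM), which moves the eye, and nuclei of the quadriceps femoris muscle (QFM), a thigh muscle, with 1 library each. Whole cells of EOM made up 1 further library, whose table names MYH6 but has no row named MYH7. Neither a treatment nor a genotype separates the groups, and the labels give no age, sex or number of animals. For QFM the sample title names nuclei and the file names name single cells. Mitochondrial genes held a median of 0.459% of UMIs in kept EOM nuclei, 0.190% in kept QFM nuclei and 11.9% in EOM whole cells.

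A myosin heavy chain is the motor protein of the thick filament, and each muscle fibre takes much of its speed from the chain it makes. In limb muscle of mammals MYH7 marks slow-twitch fibres, while MYH6 is best known from the atria of the heart. In eye muscle of the human and the rabbit, alpha-cardiac and slow tonic chains have been described in multiply innervated fibres, which contract slowly and tonically. MYH15 encodes a chain grouped with these slow tonic forms, MYH13 encodes the superfast chain of eye and laryngeal muscle, MYH3 is named for its embryonic form and MYH4 is a fast chain. In the human genome MYH6 and MYH7 lie next to each other and their sequences are very alike. The deposited tables give no coordinates and no sequence is shown here. In a RefSeq gene table of the species, used for names and neighbours only, MYH6 lay between CMTM5 and a protein-coding gene without a symbol, and no row was named MYH7.

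Sequencing of EOM nuclei gave 61618999 UMIs (unique molecular identifiers, each standing for 1 captured RNA molecule) over 16491 barcodes, and that of QFM nuclei 72590186 UMIs over 12503 barcodes. Filters and a doublet caller left 13975 EOM and 10525 QFM nuclei, of which 5976 and 7446 fell in clusters that matched the fixed list of myofibre markers. These myofibre-like nuclei had a median of 4069.5 UMIs in EOM and 5114.5 in QFM. Clustering left out the heavy chain genes that carry a symbol, so that levels of MYH7 and MYH6 across clusters were not set by the genes themselves. Any heavy chain row without a symbol was not left out. The nuclei libraries had 51 barcodes in common, 33 of them among kept nuclei. Levels are given as CPM, the usual scaling of a gene's UMIs to a fixed total for the same nuclei. Their 95% intervals, like all intervals here, cover counting error only. With 1 library a group there was no replicate check and no test, and the differences describe these libraries. UMIs were not divided by gene length, so levels are compared between muscles and nuclei and not between genes. How reads shared by near-identical heavy chains were counted is not given in the sources used here, and low counts of one chain beside high counts of another are uncertain for that reason.

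MYH7 was lower and MYH6 higher in EOM than in QFM. MYH7 reached 325 CPM in EOM myofibre-like nuclei (8602 UMIs, interval 319 to 332), against 1869 CPM in QFM (79953 UMIs, 1856 to 1882). The log2 ratio of EOM over QFM was -2.52 (-2.55 to -2.49). MYH6 reached 25.3 CPM in EOM (669 UMIs, 23.4 to 27.3), against 9.73 CPM in QFM (416 UMIs, 8.81 to 10.7), a log2 ratio of 1.38 (1.20 to 1.56). Over all 18731 genes with at least 20 UMIs, the median log2 ratio was 0.33. Of these, 10.4% were lower in EOM by 2-fold or more, as MYH7 was, and 30.3% were at least 2-fold higher, as MYH6 was. Ratios over a summed library cannot tell fewer nuclei with a gene from less RNA of it per nucleus, and the counts per nucleus below bear on that.

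MYH7 was distributed over nuclei in different ways in the muscles. In EOM 62.5% of myofibre-like nuclei had no MYH7 UMI and 18.0% had 1, while 3.41% had 10 to 19, 0.636% had 20 to 49 and none had 50 or more. In QFM 35.6% had none and 16.4% had 1, but 13.3% had 10 to 19, 20.9% had 20 to 49 and 2.97% had 50 or more. The highest count in a nucleus was 37 in EOM and 290 in QFM. In QFM 3.34% of nuclei had 5 to 9 MYH7 UMIs, fewer than had 2 to 4 or 10 to 19, whereas in EOM each further step held fewer nuclei than the one before. MYH6 was rare in both muscles: 94 EOM nuclei had at least 2 UMIs, against 38 QFM nuclei. The highest MYH6 counts were 25 UMIs in an EOM nucleus and 23 in a QFM nucleus. Nuclei with at least 5 MYH6 UMIs numbered 41 in EOM and 3 in QFM.

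**Figure D1:**
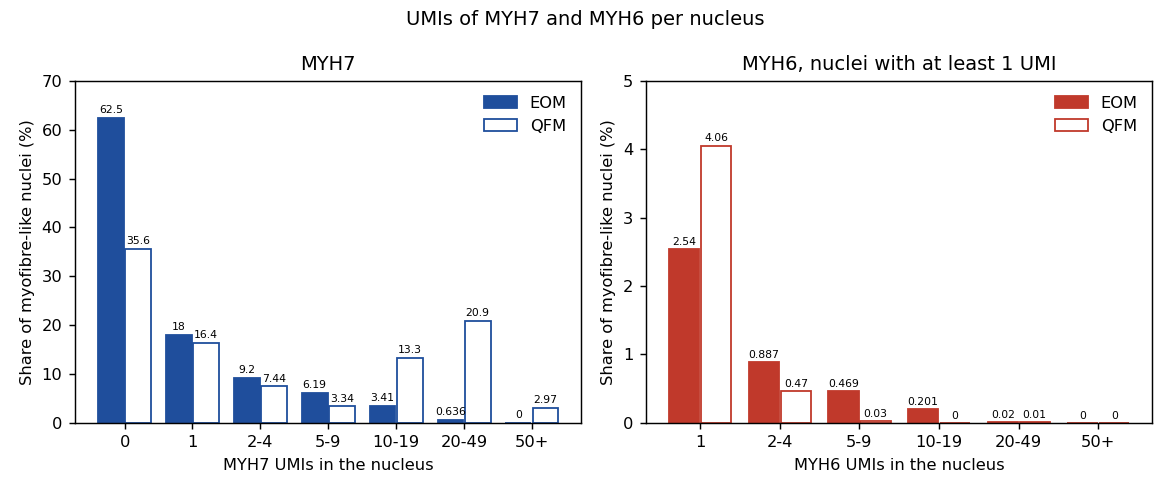
Share of myofibre-like nuclei (%) by the number of UMIs of MYH7 (left) and MYH6 (right) in the nucleus, for EOM (filled bars) and QFM (open bars); the MYH6 plot leaves out nuclei with none. The bins have unequal widths; 20 to 49 MYH7 UMIs occur in 0.636% of EOM nuclei and 20.9% of QFM nuclei, and MYH6 counts of 5 to 9 occur in 0.469% of EOM nuclei and 0.0269% of QFM nuclei.

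At least 2 UMIs of MYH7 were seen in 19.4% of EOM myofibre-like nuclei (18.4 to 20.5) and in 48.0% of QFM ones (46.8 to 49.1). Thinning every nucleus to 1000 UMIs removed the difference in depth and gave 9.30% in EOM and 35.1% in QFM. Free RNA adds UMIs to nuclei that do not express a gene, and endothelial-like nuclei of the same libraries served as the measure of it. Of these, 1.97% in EOM and 9.57% in QFM had at least 2 MYH7 UMIs at median depths below those of myofibre-like nuclei, or 0.325% and 1.01% after thinning. For MYH6 the shares were 1.57% in EOM (1.27 to 1.92) and 0.510% in QFM (0.361 to 0.700). After thinning 37 EOM nuclei (0.648%) and 2 QFM nuclei (0.0270%) were left with at least 2 MYH6 UMIs. No endothelial-like nucleus of 1270 in EOM or of 1003 in QFM had 2 MYH6 UMIs, which allows shares of up to 0.236% and 0.299%.

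In EOM almost all MYH7 above the endothelial-like level lay in 2 of 6 clusters of myofibre-like nuclei. Cluster 10, with 585 nuclei, held MYH7 at 1751 CPM (1697 to 1806). Cluster 12, with 458 nuclei, held it at 1881 CPM (1812 to 1951). Together they made up 17.5% of EOM myofibre-like nuclei and gave 80.3% of the MYH7 UMIs. In clusters 2, 3, 8 and 17 MYH7 stood at 71.0, 81.3, 72.0 and 71.4 CPM, beside 67.3 CPM (59.1 to 76.3) in endothelial-like nuclei. Over these clusters together it was 75.1 CPM (71.5 to 78.7), an interval that overlaps the endothelial-like one. Cluster 17 matched markers of the neuromuscular junction, where nerve meets fibre. Cluster 10 had a score of 0.783 for the myofibre list and 0.594 for the junction list, and the part of junctional nuclei in its values was not tested.

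MYH6 was more narrowly placed than MYH7 in EOM. Cluster 10 held it at 228 CPM (209 to 249) and gave 78.8% of all MYH6 UMIs of EOM myofibre-like nuclei. Cluster 12, with MYH7 close to that of cluster 10, held MYH6 at 23.6 CPM (16.6 to 32.7). The other clusters ranged from 3.002 to 6.96 CPM, beside 3.34 CPM (1.72 to 5.83) in endothelial-like nuclei. Of the 94 nuclei with at least 2 MYH6 UMIs, 85 were in cluster 10 and 5 in cluster 12. Even in cluster 10 MYH6 was far from general, with at least 2 UMIs in 14.5% of nuclei (11.8 to 17.6), whereas MYH7 was found at that count in 87.2% (84.2 to 89.8).

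In QFM MYH7 and MYH6 followed the same clusters. MYH7 stood at 3791, 4044 and 3929 CPM in clusters 1, 2 and 3, at 2080 CPM in cluster 16, which matched markers of the tendon junction, and at 943 CPM in cluster 6. Clusters 4 and 5 held it at 97.6 and 101 CPM, below the 134 CPM (123 to 146) of endothelial-like nuclei. MYH6 stood at 18.7, 29.97 and 14.7 CPM in clusters 1, 2 and 3, at 19.8 CPM in cluster 16 and at 3.69 CPM in cluster 6. In clusters 4 and 5 it stood at 0.430 and 0.225 CPM, beside 0.497 CPM in endothelial-like nuclei.

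**Figure D2:**
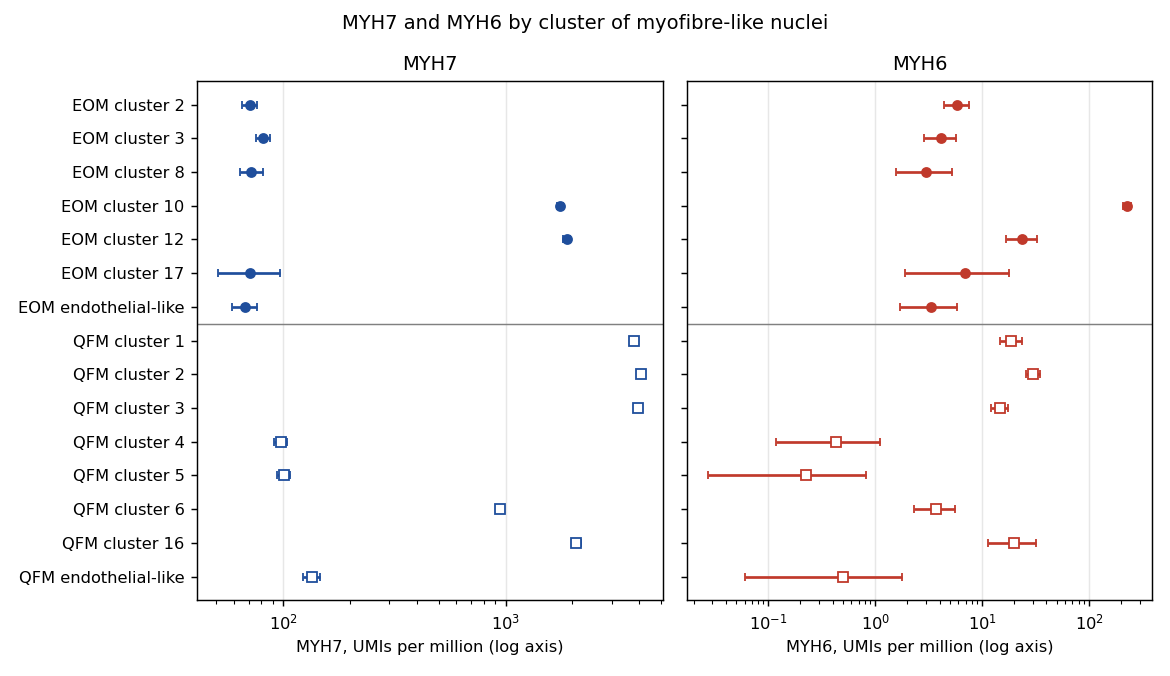
Levels of MYH7 (left) and MYH6 (right) in CPM, on log axes, in each cluster of myofibre-like nuclei and in endothelial-like nuclei of EOM (filled circles) and QFM (open squares); bars are 95% intervals of counting error. In EOM only clusters 10 and 12 lie far above the endothelial-like level for MYH7, and for MYH6 cluster 10 stands apart at 228 CPM.

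The number of MYH6 UMIs per 100 MYH7 UMIs put the clusters on one scale. It was 13.04 in EOM cluster 10 and 1.26 in EOM cluster 12, although both had MYH7 near 1800 CPM. In QFM it was 0.520 over all myofibre-like nuclei, and it stayed between 0.223 and 0.952 in the 7 clusters while MYH7 itself ranged from 97.6 to 4044 CPM. In the other EOM clusters it ran from 4.17 to 9.76, on 4 to 55 MYH6 UMIs each, beside 4.96 in endothelial-like nuclei, on 12 MYH6 UMIs. EOM cluster 12 and the QFM clusters thus had at most 1.26 MYH6 UMIs per 100 of MYH7, and EOM cluster 10 had 13.04.

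Clusters with MYH7 at 1000 CPM or more were set side by side between the muscles. They were clusters 10 and 12 in EOM (1043 nuclei) and 1, 2, 3 and 16 in QFM (2946 nuclei). This threshold was set after the values were seen, and MYH7 chose the clusters, so the values are a description. MYH7 averaged 1803 CPM in these EOM clusters and 3855 CPM in these QFM clusters, a log2 ratio of -1.10 (-1.13 to -1.06). Among the chosen clusters it lay at 1751 and 1881 CPM in EOM and between 2080 and 4044 CPM in QFM. QFM cluster 6, at 943 CPM, fell just under the threshold and was left out. MYH6 averaged 147 CPM in the EOM clusters and 20.6 CPM in the QFM clusters, a log2 ratio of 2.83 (2.65 to 3.02). MYH15 stood at 3969 and 1.22 CPM, and MYH13 at 1917 and 2.33 CPM. MYH3 stood at 2656 CPM in the EOM clusters and 381 CPM in the QFM clusters. The MYH13 level of the EOM clusters compares with 1398 CPM in EOM endothelial-like nuclei, and their MYH15 level with 382 CPM there.

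Nuclei were next grouped by the chain with most UMIs, among the 6 heavy chains that carry a symbol, MYH7, MYH6, MYH13, MYH15, MYH3 and MYH4. MYH1, MYH2 and MYH8 have no named row, so nuclei rich in these chains could not be grouped by them. The row named MYH3 held 74.5% of the UMIs of the 6 chains in QFM and 29.3% in EOM. Whether it counts the embryonic chain alone was not tested, and MYH3 here means the row of that name. At least 3 heavy chain UMIs were present in 5970 EOM and 7389 QFM nuclei. MYH7 led in 179 EOM nuclei (2.998%) and in 2899 QFM nuclei (39.2%). MYH6 led in 9 EOM nuclei (0.151%), all in cluster 10, and in no QFM nucleus. MYH13 led in 3348 EOM nuclei, MYH15 in 1455 and MYH3 in 803, while MYH3 led in 4480 QFM nuclei. The 176 EOM and 10 QFM nuclei with a tie were put in no group.

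The grouping uses the same UMIs, so MYH7 in nuclei led by MYH7 and MYH6 in nuclei led by MYH6 are fixed by it. In the other EOM groups MYH7 stood at 463 CPM in nuclei led by MYH15, 454 CPM in those led by MYH3 and 98.4 CPM in those led by MYH13. Grouping on one random part of each nucleus's UMIs and measuring in the remainder gave 470, 485 and 99.1 CPM. The groups mixed clusters of unlike MYH7 level. Among EOM nuclei led by MYH15, the 345 of cluster 10 had MYH7 at 1774 CPM (1704 to 1846), whereas the 967 of cluster 2 had it at 69.0 CPM (61.6 to 77.0). Among nuclei led by MYH13, the 43 of cluster 10 had 887 CPM and the 85 of cluster 12 had 1073 CPM, against 68.2 CPM in cluster 2 and 79.0 CPM in cluster 3. Over all nuclei of clusters 10 and 12, MYH13 itself stood at 2001 and 1790 CPM, beside 1398 CPM in EOM endothelial-like nuclei. In QFM nuclei led by MYH3, MYH7 stood at 228 CPM.

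Nuclei led by MYH7 were themselves split between the EOM clusters, with 141 of 179 in cluster 12 and 36 in cluster 10. Their MYH7 level was 3091 CPM, against 3995 CPM in QFM nuclei led by MYH7. MYH6 stood at 35.9 CPM (23.3 to 53.1) in EOM nuclei led by MYH7 and at 20.7 CPM (18.7 to 22.9) in QFM nuclei led by MYH7. The intervals overlapped when groups and levels came from separate parts of the UMIs (20.9 to 67.1 in EOM, 16.9 to 22.7 in QFM), and also at a 60% share of chain UMIs and after thinning. Of the 25 MYH6 UMIs in EOM nuclei led by MYH7, 14 came from the 36 nuclei of cluster 10, and the 141 of cluster 12 stood at 19.7 CPM (9.85 to 35.3). In EOM MYH6 stood at 59.4 CPM in nuclei led by MYH3, 31.2 CPM in those led by MYH15 and 9.18 CPM in those led by MYH13. The place of MYH3 in this order depended on the grouping. With a 60% share it stood at 29.4 CPM, below the 43.3 CPM of nuclei led by MYH7, and after thinning at 42.0 CPM, below the 45.9 CPM of those led by MYH15. In cluster 10, however, MYH6 stood at 366 CPM (313 to 426) in the 120 nuclei led by MYH3 and 374 CPM (293 to 471) in the 43 led by MYH13. It stood at 118 CPM (101 to 138) in the 345 led by MYH15 and 103 CPM (56.2 to 172) in the 36 led by MYH7. The 9 nuclei led by MYH6 had 89 MYH6 and 21 MYH7 UMIs between them. In QFM nuclei led by MYH3, MYH6 stood at 1.21 CPM.

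**Figure D3:**
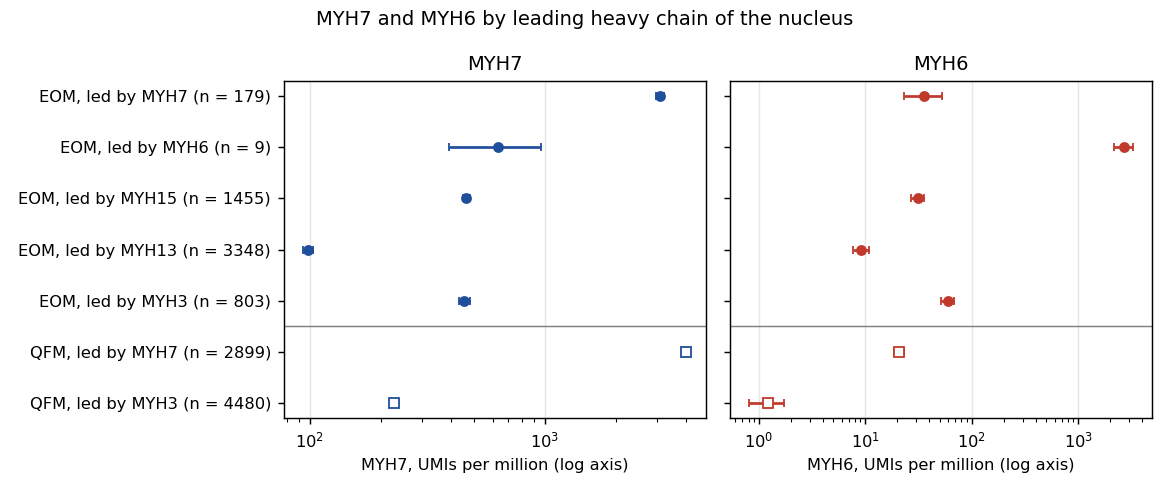
Levels of MYH7 (left) and MYH6 (right) in CPM, on log axes, in myofibre-like nuclei grouped by the heavy chain with most UMIs, for EOM (filled circles) and QFM (open squares), with the number of nuclei; bars are 95% intervals of counting error. MYH7 stands at 463 CPM in EOM nuclei led by MYH15 and 98.4 CPM in those led by MYH13, and values of a chain in the group it leads are fixed by the grouping.

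MYH15 occurred somewhat more often, and MYH13 less often, in EOM nuclei with at least 2 MYH7 UMIs than in the remainder. Before thinning MYH15 was found at 2 UMIs in 77.5% of nuclei with MYH7 and 68.9% of those without, a difference of 8.66 points (5.85 to 11.3). After thinning MYH15 shares were 53.1% with and 42.3% without MYH7. MYH13 was found in 95.6% with and 98.8% without MYH7 before thinning, at levels that 83.9% of endothelial-like nuclei also reached. After thinning MYH13 was found in 48.8% with and 89.0% without MYH7, a difference of -40.2 points (-44.5 to -35.9), beside 39.4% in endothelial-like nuclei. Within the clusters rich in MYH7 that difference was not seen. In cluster 10 thinned MYH13 shares were 49.3% with and 46.0% without MYH7, a difference of 3.25 points (-4.89 to 11.3). In cluster 12 they were 44.6% and 49.01%, a difference of -4.37 points (-13.7 to 5.08). Before thinning the differences were 9.57 points (2.90 to 19.4) in cluster 10 and 7.51 points (1.20 to 16.2) in cluster 12. Nuclei without MYH7 were shallower there, with median depths of 2535 against 3738.5 UMIs in cluster 10 and 1729.5 against 3367 in cluster 12. Thinned endothelial-like nuclei had MYH15 in 5.94%. The MYH13 share of nuclei with MYH7 thus lay near that of endothelial-like nuclei, and their MYH15 share lay far above it.

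The count of MYH7 UMIs gave the same picture by level. In EOM nuclei with 0, 1, 2 to 4, 5 to 9 and 10 or more MYH7 UMIs, MYH13 stood at 12681, 12639, 9176, 2123 and 1778 CPM. MYH15 in the same steps stood at 4017, 3775, 3585, 4242 and 4075 CPM. MYH6 stood at 6.98, 13.3, 67.1, 100.3 and 144 CPM. Median depths of the 5 groups were 3998.5, 4519, 3642, 3621 and 4945.5 UMIs. Over all nuclei MYH13 was thus lower and MYH6 higher in those with more MYH7, and MYH15 stayed between 3585 and 4242 CPM. These pooled steps mixed unlike clusters. In the EOM clusters other than 10 and 12, MYH13 stood at 12809, 13084 and 12617 CPM with 0, 1 and 2 to 4 MYH7 UMIs. In cluster 10 it stood at 4853 CPM without MYH7, over 38 nuclei, and at 1557, 2039, 1872 and 1753 CPM in the further steps. MYH6 in cluster 10 stood at 368, 432, 295, 153 and 214 CPM over the 5 steps, so it was not higher there in nuclei with more MYH7. MYH15 stood at 5717 CPM in cluster 10 and 1318 CPM in cluster 12, and in cluster 2, where MYH7 was at the endothelial-like level, it stood at 8028 CPM. Within cluster 10 MYH15 was found after thinning in 78.2% of nuclei with MYH7 and 70.4% without. Within cluster 12 the shares were 22.8% and 27.2%, a difference of -4.46 points (-12.7 to 3.74). In QFM the counterpart of MYH13 was the row named MYH3, found after thinning in 6.82% of nuclei with MYH7 and 89.2% of those without. MYH15 and MYH13 were close to absent from QFM, with 34 and 250 UMIs over all its myofibre-like nuclei.

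Nuclei with MYH6 held MYH7 more often than other nuclei did. Of the 94 EOM nuclei with at least 2 MYH6 UMIs, 76 had at least 2 of MYH7, which is 80.9%, against 18.5% of the others. After thinning 11 of 37 had MYH7, which is 29.7%, against 9.16% of the others, a difference of 20.6 points (8.30 to 36.6). All 38 such QFM nuclei had at least 2 MYH7 UMIs, against 47.7% of the others, at a median depth of 8338 UMIs against 5043 in nuclei without MYH6. In QFM this held for nuclei with a single MYH6 UMI too, since the 302 nuclei with 1 had MYH7 at 3952 CPM, against 1725 CPM in the 7106 without. MYH15 was found at 2 UMIs in 80.9% of EOM nuclei with MYH6 and 70.4% of the others, and in none of the 38 in QFM. After thinning the EOM shares for MYH15 were 56.8% and 43.2%, a difference of 13.6 points whose interval ran from -2.31 to 28.2. MYH13 was found in 56.8% with and 85.4% without MYH6 after thinning.

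Within cluster 10 the relation turned round, and nuclei with MYH6 held less MYH7 and MYH15 than their neighbours. MYH15 stood at 6359, 5249, 3655 and 2899 CPM in nuclei with 0, 1, 2 to 4 and 5 or more MYH6 UMIs, which numbered 455, 45, 47 and 38. MYH7 stood at 1870, 1833, 1132 and 1352 CPM in the same steps. Per nucleus, the median of MYH15 per 1000 UMIs was 0.786 (quartiles 0.292 and 3.76) with 5 or more MYH6 UMIs and 5.13 (2.41 and 8.35) without MYH6. The upper quartile of the nuclei richest in MYH6 overlapped the lower quartile of those without it. The medians of MYH3 were 2.66 with 5 or more MYH6 UMIs and 2.56 without, and those of MYH13 were 1.496 and 1.47. At the level of 2 UMIs, MYH7 was found after thinning in 27.8% of cluster 10 nuclei with MYH6 and 50.8% of those without. The difference was -23.1 points (-35.7 to -6.30). MYH15 was found in 55.6% and 75.5%, a difference of -20.0 points (-36.3 to -4.57), over 36 nuclei with MYH6. Over the 85 nuclei with at least 2 MYH6 UMIs together, MYH15 stood at 3299 CPM, beside 6359 CPM in nuclei without MYH6. MYH6 is among the 10 leading genes of cluster 10, although it took no part in the clustering.

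**Figure D4:**
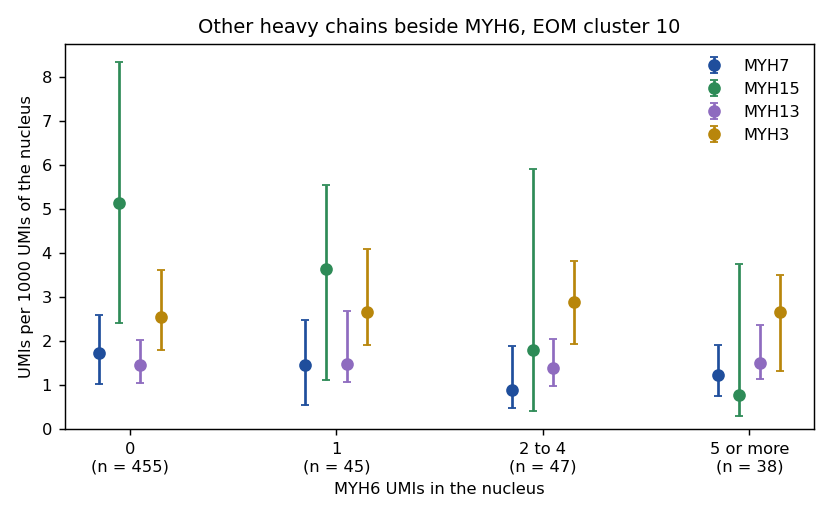
UMIs of MYH7, MYH15, MYH13 and MYH3 per 1000 UMIs of the nucleus in EOM cluster 10, by the number of MYH6 UMIs in the nucleus; points are medians over nuclei, bars run from the lower to the upper quartile, and n is the number of nuclei. The MYH15 median is 5.13 per 1000 in nuclei without MYH6 and 0.786 in those with 5 or more UMIs, while the MYH3 medians lie between 2.56 and 2.88.

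Other genes were also compared within cluster 10 between nuclei with at least 2 MYH6 UMIs and those without. Median depths were 4249 and 3438 UMIs. Of 9281 genes with at least 20 UMIs there, 3.15% were at least 2-fold higher and 5.58% at least 2-fold lower in the 85 nuclei with MYH6 than in the 455 without, on log2(CPM + 5). Among rows with a symbol at 100 CPM or more with MYH6, the ratio was largest for NALF1, NRCAM, DLGAP1, KCNK10 and AKAP11. Another 3 rows without a symbol had larger ratios than KCNK10. NALF1, an accessory protein of the NALCN sodium leak channel, stood at 3140 CPM with and 131 CPM without MYH6. It was seen in 31 of the 85 nuclei, and 1 of them held 222 of its 1329 UMIs. Without MYH6, NALF1 was seen in 17.6% of nuclei. DLGAP1, a scaffold protein of synapses, stood at 1191 and 97.8 CPM and was seen in 49.4% and 19.1% of nuclei. KCNK10, a background potassium channel, stood at 130 and 13.4 CPM, and AKAP11, an anchor of protein kinase A, at 354 and 44.3 CPM. NRCAM, a neural adhesion molecule, was seen in 9 of the 85. Of the fixed lists, TNNT2, cardiac troponin T, stood at 1040 CPM with and 2082 CPM without MYH6. PIEZO2, a stretch-gated channel also used as a spindle marker, stood at 26.0 and 122 CPM. Of 5 measured spindle genes 1 was at least 2-fold higher with MYH6 and 1, PIEZO2, at least 2-fold lower. Of 11 measured slow sarcomere genes 1, ATP2A2, was at least 2-fold higher and none lower.

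Over all EOM myofibre-like nuclei, the genes of largest ratio with MYH6 among rows with a symbol were KCNK2, RP1, KCNK10, FEZ2 and TMEM108. KCNK2, a mechanically gated potassium channel, stood at 247 CPM in the 94 nuclei with MYH6 and 5.26 CPM in the 5730 without. RP1, a microtubule protein known from photoreceptors, stood at 269 and 8.82 CPM. Up to 4 rows without a symbol ranked among them. FEZ2 was the most widespread of the 5, seen in 84 of the 94 and in 19.6% of those without. At least 2-fold higher with MYH6 were 3.09% of 16650 genes tested, and 3.34% were at least 2-fold lower. Of the 11 slow sarcomere genes 8 were at least 2-fold higher with MYH6 and none lower, with a median log2 ratio of 1.59. Within nuclei led by MYH15, RP1 and KCNK2 again had the largest ratios, at 569 and 299.8 CPM in 34 nuclei with MYH6 against 11.9 and 10.9 CPM in 1378 without. There 7 of 11 slow sarcomere genes were at least 2-fold higher with MYH6 and none lower, where 6.37% of all genes were higher and 12.7% lower. Within nuclei led by MYH3, KCNK2 and NALF1 came first among rows with a symbol, over 30 nuclei with MYH6, with 3 rows without a symbol above NALF1. There 5 of 11 slow genes were higher and none lower, where 6.45% of all genes were higher and 16.7% lower. Both groups mixed clusters. Cluster 10 held 164 of the 205 MYH6 UMIs in nuclei led by MYH15 and 169 of the 187 in those led by MYH3. Within cluster 10 itself 1 of 11 slow genes was higher with MYH6 and none lower, with a median log2 ratio of -0.31. In QFM the 38 nuclei with MYH6 showed smaller ratios, led by ADGRL3 at 153 and 22.3 CPM, followed by MRPS6, PPP1R1C, KCNMA1 and SLC38A1. ADGRL3 was seen in 6 of the 38 nuclei. Of the slow sarcomere genes 8 of 11 were at least 2-fold higher with MYH6 in QFM and none lower, where 2.34% of all genes were higher and 5.69% lower. Within QFM nuclei led by MYH7, where 36 had MYH6, none of the 11 moved 2-fold either way, where 1.74% of all genes were higher and 4.41% lower.

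For MYH7, which has more nuclei, the leading rows with a symbol in EOM were COL25A1, RIT2, DKK2, TECRL and DPP10. COL25A1, a membrane collagen that motor innervation of muscle needs in the mouse, stood at 2380 CPM in the 1162 nuclei with MYH7 and 77.3 CPM in the 3736 without. TECRL, a gene best known from heart, stood at 408 and 11.8 CPM. In QFM the leading rows with a symbol were MYOZ2, ATP2A2, PPP1R1C, DKK2 and KCNK2. MYOZ2, a Z-disc protein of slow and cardiac muscle, stood at 1044 CPM in 3573 nuclei with and 19.4 CPM in 2650 without MYH7. ATP2A2, the slow and cardiac calcium pump, stood at 2813 and 69.99 CPM. KCNK2 stood at 171 and 1.86 CPM in QFM, where it went with MYH7. COL25A1, DKK2, TECRL and DPP10 are also among the 10 leading genes of EOM cluster 12. That cluster held 364 of the 1162 nuclei with MYH7, whereas COL25A1 was seen in 826 of the 1162. How far the ratios follow cluster 12 was not tested. DKK2, a Wnt antagonist, was on both lists, at 827 and 26.2 CPM in EOM and 249 and 3.40 CPM in QFM.

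Across the 13 myofibre-like clusters of both muscles, the symbol-bearing genes whose log2(CPM + 5) followed MYH7 most closely were TNNI1, XPO4, C1orf43, MPPED2 and CASP6. TNNI1, slow skeletal troponin I, had a Pearson r of 0.995, and the other 4 had r from 0.930 to 0.975. TNNI1 stood at 70.6 and 148 CPM in EOM clusters 10 and 12, at most 2.21 CPM in the other EOM clusters, and between 209 and 225 CPM in QFM clusters 1, 2 and 3. For MYH6, 4 of the 5 were SEMA3G (r 0.966), WEE1 (0.926), RYR3 (0.885) and MED21 (0.884). RYR3, a calcium release channel, stood at 921 and 223 CPM in EOM clusters 10 and 12 and between 310 and 568 CPM in QFM clusters 1, 2 and 3. MYH7 and MYH6 correlated with r 0.666. These coefficients describe 13 points that share 2 libraries, and apart from the heavy chains with a symbol the genes could take part in the clustering.

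The slow sarcomere list held 16 genes of slow contraction, of which 11 had a named row and all 11 were measured with at least 20 UMIs. In EOM 7 were at least 2-fold lower than in QFM, 1 was higher and 3 lay within 2-fold, with a median log2 ratio of -2.50, against 0.33 over all genes, of which 10.4% were lower and 30.3% higher by that much. MYL3, a ventricular and slow essential light chain, had 9.49 CPM in EOM, against 445 CPM in QFM, which is -5.55 on the log2 scale (-5.74 to -5.37). MYL2, the matching regulatory light chain, had -4.04, TNNC1, slow and cardiac troponin C, had -3.58, ATP2A2 had -3.33 and TNNI1 had -2.65. CASQ2, the cardiac and slow calsequestrin that stores calcium, went the other way, with 316 CPM in EOM, against 99.5 CPM in QFM, a log2 ratio of 1.67.

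Restricting both muscles to the clusters with MYH7 at 1000 CPM or more left 8 of the 11 slow genes lower in EOM by 2-fold or more, with 1 higher and a median of -1.62. In that setting 9.96% of 14977 genes were at least 2-fold lower and 29.6% at least 2-fold higher in EOM, with a median of 0.35. TNNI1 stood at 102 CPM in the EOM clusters and 213 CPM in the QFM clusters, a log2 ratio of -1.07 beside -1.10 for MYH7. ATP2A2 stood at 319 and 3403 CPM, a ratio of -3.41. MYL3 had -3.90 and MYL2 -2.79. MYL6B, a light chain of slow and non-muscle myosin, stood at 319 and 161 CPM, a ratio of 0.98. The EOM clusters also differed from each other: MYOM3 of the M-band stood at 406 CPM in cluster 12 and 76.2 CPM in cluster 10, and TNNT2 at 825 and 1868 CPM.

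Of 10 cardiac isoform genes, 5 were measured, and 3 of them were at least 2-fold higher in EOM with none lower (median log2 ratio 3.20), where 30.3% of all genes were higher and 10.4% lower. TNNT2 had 419 CPM in EOM, against 1.54 CPM in QFM, a log2 ratio of 8.08. ACTC1, cardiac actin, had 5.44, and MYBPC3, cardiac myosin-binding protein C, had 3.20 on 68 and 12 UMIs. TECRL had -0.13 and RYR2, the cardiac ryanodine receptor, had -0.32. In the clusters with MYH7 at 1000 CPM or more their ratios were 1.52 and 0.15, and the 2 EOM clusters were unlike. TECRL stood at 1414 CPM in cluster 12 and 28.6 CPM in cluster 10, and RYR2 at 106 and 13.4 CPM. In EOM, ACTC1 stood at 737 CPM in the clusters with MYH7 at 1000 CPM or more and 679 CPM in the others, and TNNT2 at 1454 and 243 CPM. The atrial genes NPPA and MYL7 had 1 and 9 UMIs in EOM myofibre-like nuclei against 2 and 3 in QFM, and NPPB had none in either.

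**Figure D5:**
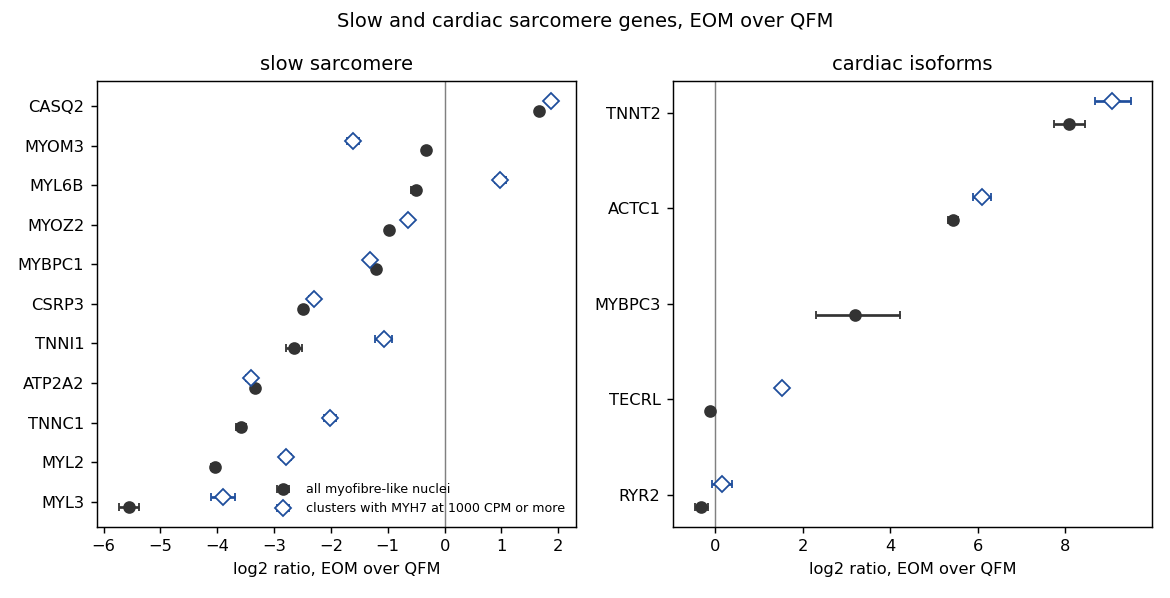
Log2 ratios of CPM, EOM over QFM, for the measured genes of the slow sarcomere list (left) and the cardiac isoform list (right), over all myofibre-like nuclei (filled circles) and over the clusters with MYH7 at 1000 CPM or more (open diamonds); bars are 95% intervals of counting error. MYL3 lies at -5.55 and TNNT2 at 8.08 over all nuclei, and MYBPC3, with fewer than 20 UMIs in those clusters, has no diamond.

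Of 32 genes named in the literature as regulators of MYH7 or MYH6, 26 were measured. In EOM 6 were at least 2-fold higher, 3 at least 2-fold lower and 17 within 2-fold, with a median log2 ratio of 0.05. Over all genes 30.3% were higher and 10.4% lower by that much, so the counts lie near the background. THRB encodes a thyroid hormone receptor, and in rodent heart thyroid hormone raises MYH6 and lowers MYH7. THRB had 53.8 CPM in EOM, against 1188 CPM in QFM, which is -4.47 on the log2 scale (-4.54 to -4.39). In the clusters with MYH7 at 1000 CPM or more it stood at 95.8 and 1558 CPM. THRA, the other receptor, had 45.4 CPM in EOM, against 14.9 CPM in QFM. VGLL3, a cofactor of TEAD factors, had 3.52, ESRRG, an oestrogen-related receptor tied to slow fibres in the mouse, had 3.46, and GATA4, a cardiac transcription factor, had 3.50 on 21 and 3 UMIs. GATA4 stood at 0.794 CPM in EOM myofibre-like nuclei, below the 2.78 CPM of EOM endothelial-like nuclei. PRDM1, also at least 2-fold higher, had 2.06 on 18 and 7 UMIs. It stood at 0.681 CPM in EOM myofibre-like nuclei, beside 0.834 CPM in EOM endothelial-like nuclei. ESRRG stood at 915 CPM in the EOM clusters with MYH7 and 1257 CPM in the others. The other lower members were PPP3CA and PPP3CB, catalytic subunits of calcineurin, at -1.92 and -1.34. In the clusters with MYH7 at 1000 CPM or more their ratios were -0.87 and -0.64, within 2-fold. PPP3CA stood below endothelial-like nuclei in both muscles, at 351 beside 1200 CPM in EOM and 1326 beside 1768 CPM in QFM. PPP3CA, PPP3CB and THRA were named after their values were seen, as were MYOM3, MYL6B and MYBPC1 of the slow list. Scaling by the median of ratios moved the lower members to 6 of 26.

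Nuclear bag fibres of the muscle spindle, the stretch receptor of muscle, are known to hold alpha-cardiac and slow tonic chains in human muscle, so a spindle list was read beside these genes. Of 10 listed genes 7 were measured, and 6 of them were at least 2-fold higher in EOM and none lower (median 2.39), beside shares of 30.3% and 10.4% over all genes. TNNT2 is on this list too. NRG1, the growth factor that induces spindles, had 3.11, PIEZO2 had 2.72, CALB1 had 2.39 and ETV4 had 2.21. In EOM, NRG1 and ETV4 stood at 41.3 and 5.18 CPM, no higher than the 127 and 5.28 CPM of endothelial-like nuclei. So did CALCRL, a further higher member named after its values were seen, at 33.4 beside 333 CPM. PIEZO2, CALB1 and TNNT2 stood at 33.8, 7.34 and 419 CPM, above the 15.3, 0.834 and 63.4 CPM of endothelial-like nuclei. PIEZO2 stood at 108 CPM in the EOM clusters with MYH7 and 21.2 CPM in the other EOM clusters, against 5.14 and 5.15 CPM in QFM. CALB1 stood at 7.57 and 7.30 CPM in the same EOM clusters, and NRG1 at 31.6 and 43.0 CPM. The 85 MYH6 nuclei of cluster 10 had less PIEZO2 than the nuclei without MYH6 there, as given above. Another 1 of the 5 spindle genes measured there was at least 2-fold higher with MYH6.

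Slow sarcomere genes were also read from nucleus to nucleus. In QFM 10 of 11 were at least 2-fold higher in nuclei with at least 2 MYH7 UMIs than in those without, where 2.51% of 15681 genes were, and the median log2 ratio was 3.95. In EOM 7 of 11 were, where 2.7% of 16130 genes were, with a median of 1.46. None of the 11 was at least 2-fold lower, where 0.397% of genes were in EOM and 1.52% in QFM. Inside the EOM clusters the counts were smaller. In cluster 10, 3 of 11 were higher with MYH7 and none lower, where 14.0% of genes were higher and 7.83% lower. In cluster 12, 4 of 11 were higher and none lower, where 13.7% of genes were higher and 7.26% lower. Only 38 nuclei of cluster 10 and 52 of cluster 12 had no MYH7, at median depths of 2364 and 1332.5 UMIs. ATP2A2 stood at 258 CPM with and 136 CPM without MYH7 in EOM, while MYL3 stood at 38.6 and 2.62 CPM. MYBPC1, the slow form of myosin-binding protein C, stood with and without MYH7 at 4934 and 5353 CPM in EOM and 11576 and 12915 CPM in QFM.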

How the data were processed

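The authors deposited matrices of raw UMI counts per gene and barcode for each library, made with Cell Ranger 7.2.0 per the headers of the nuclei files; the submitters' processing notes also name Seurat 5.2.1. The genome build, the annotation and the counting of reads shared by near-identical genes were not given in the sources used here.

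Barcodes with at least 500 UMIs and 200 genes and at most 10% mitochondrial UMIs (20% for whole cells) were kept, and doublets called by scrublet (scanpy 1.11.5, expected rate 6%) were removed, 2498 in EOM and 1866 in QFM. Each library was clustered alone (2000 variable genes without the heavy chains that carry a symbol, 30 components, 15 neighbours, Leiden resolution 1). Clusters were named from fixed marker lists at a score of at least 0.5 with at least 3 markers. The gap rules between scores (0.1, and 0.5 for clusters led by mitochondrial genes) were set after the data were seen. One EOM cluster of 2046 barcodes led by mitochondrial genes and one of 74 stayed unnamed.

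Counts were summed over nuclei. Intervals at 95% are exact Poisson for levels, Clopper-Pearson for shares, conditional binomial for ratios and Newcombe for differences of shares (scipy 1.17.1, numpy 2.4.6, pandas 2.3.3, Python 3.11.15). A gene was measured with at least 20 UMIs over both sums; a limit for a count of 0 is 3 counts. Nuclei were thinned to 1000 UMIs, leaving out shallower ones. Genes named beyond the heavy chains, among rows with a symbol, are the 5 measured members of each list with the largest ratio, the 5 most like MYH7 or MYH6 over clusters, and the 5 of largest ratio at 100 CPM or more in nuclei with either chain. One gene most like MYH6 is not reported here. Members and lists were chosen with earlier results of these data known. Alternatives are in the closing section.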

Additional observations from a re-analysis of the deposited data

Results flagged for a closer look

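MYH6 was also read in EOM whole cells, which enter no comparison above. It stood at 90.9 CPM (24.8 to 233) in 29 myofibre-like cells, on 4 UMIs in 2 cells, beside 4.02 CPM (1.93 to 7.39) in endothelial-like cells of the same library. The value was marked because it comes from data outside the nuclei and lies above the endothelial-like level. Over all 7111 kept cells MYH6 had 24 UMIs.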

How the results depend on the processing

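No result put through the alternatives changed direction, but values within single clusters were not put through them. In cluster 12 the MYH13 difference with minus without MYH7 was 7.51 points before thinning and -4.37 points after it. No paired analysis was possible because each group has 1 library, and for the same reason no replicate could be left out. Leaving out myofibre-like clusters of low median depth changed nothing, since none lay under the limit. The values that moved beyond counting error follow, and the cause was not tested. The MYH7 log2 ratio of EOM over QFM (-2.52) was -2.85 with median of ratios scaling, -2.57 without the 50 most abundant genes, -2.48 with doublets kept, -2.65 with the unnamed mitochondrial EOM cluster counted (an alternative chosen after seeing the data), -2.70 over all kept nuclei, -2.08 thinned and -2.75 with the endothelial-like level subtracted. The MYH6 ratio (1.38) was 1.05 with median of ratios scaling and 1.69 thinned, and 6 regulators in place of 3 were lower with that scaling. The share of EOM nuclei with MYH7 (19.4%) was 37.5% at 1 UMI, 14.3% at 3 and 9.30% thinned. In QFM (48.0%) it was 64.4%, 42.7% and 35.1%, and 50.5% with doublets kept. The MYH6 share (1.57%) was 4.12%, 1.14% and 0.648% in EOM, and in QFM (0.510%) 4.57%, 0.121% and 0.0270%. The MYH15 difference with minus without MYH7 (8.66 points) was 13.7 with the unnamed cluster, 2.04 at 1 UMI and 14.7 at 3. That of MYH13 (-3.14) was -1.002, -0.643 and -8.46 in the same settings and -40.2 thinned. The MYH7 difference with minus without MYH6 was 31.7 at 1 UMI and 20.6 thinned in EOM (62.4), and 35.8 at 1 UMI, 57.4 at 3 and 14.9 thinned in QFM (52.3), the last over 2 nuclei. That of MYH13 by MYH6 in EOM (-3.52) was -28.7 thinned. By leading chain in EOM, MYH6 in nuclei led by MYH15 (31.2 CPM) was 25.4 where the leader held 60% of chain UMIs and 45.9 thinned. Led by MYH13 (9.18) it was 5.44 at 60%, 11.4 with doublets and 13.3 thinned. Led by MYH3 (59.4) it was 70 in the other part of the UMIs, 29.4 at 60% and 42.0 thinned. MYH7 led by MYH15 (463) was 484 with doublets and 487 thinned. Led by MYH13 (98.4) it was 71.5 at 60%, 128 with doublets and 124 thinned. Led by MYH3 (454) it was 485 in the other part, 204 at 60% and 378 thinned. In QFM, MYH6 led by MYH7 (20.7) was 25.6 thinned. MYH6 led by MYH3 (1.21) was 0.592 at 60% and 3.15 with doublets, and MYH7 led by MYH3 (228) was 190.0 at 60%, 495 with doublets and 163 thinned.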
